A study of Mus musculus with 24 samples.

Results

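Messenger RNA of 40 genes for neuropeptide receptors was followed in the hypothalamus of overfed and control mice. The members were the rows of the hypothalamic count table whose Ensembl identifier maps to a fixed list of symbols, and all 40 were found once among 55471 genes. Hypothalami of 18-week-old male C57BL6/J mice on chow were collected in 4 groups of 6 mice. ExpOF d14 mice had received a liquid diet with added sucrose through an intragastric line, stepped up to 150% of energy, and were killed on day 14. ExpOF d14+3 mice had the same 14 days of overfeeding, were then infused with water and were killed on day 17, which is 3 days later. Control d14 and Control d14+3 mice carried the line as well and received water. No genetic change was made in any group, and whole dissected hypothalami were used, so a receptor present in a small nucleus was diluted by the rest of the tissue. In bulk tissue, fewer cells of a type and less RNA per cell cannot be told apart.

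Most of these receptors are proteins with 7 passes through the membrane that act through G proteins. Those coupled to Gq raise calcium in the cell, those coupled to Gs raise cyclic AMP, and those coupled to Gi lower cyclic AMP and open potassium channels. In the hypothalamus they let neurons and glia read peptides that govern feeding, arousal, stress, water balance and reproduction. Npr2 and Npr3 differ in kind: Npr2 is a guanylyl cyclase that binds C-type natriuretic peptide, and Npr3 is a receptor that clears natriuretic peptides.

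The libraries held 8928182 to 34848437 counts, with a median of 23142800. The study removed 1 Control d14 mouse for RNA quality without naming it in the labels. Control d14 replicate 4 was taken to be that mouse, although its RNA integrity number is 9.8 and those of replicates 1 and 5 are 8.6 and 8.0. It stood apart for many receptors and was left out here, so that 23 libraries entered the tests and Control d14 had 5 mice. July and September cohorts each gave 3 mice to every group, except that Control d14 had 2 September mice after this removal. Control d14 replicate 1 also stood apart, and the d14 calls, the members' median and the 6 leading fold changes are given with and without it. RNA was extracted in 2 rounds, with replicates 1 to 3 of every group in round 1 and replicates 4 to 6 in round 2. Beyond this, nothing in the labels ties equal replicate numbers of different groups to a shared cage or litter.

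Receptor transcripts ranged over more than 100-fold in level. Levels between genes are given as FPKM, which is CPM (counts scaled to library size) divided by the gene's length in kilobases, as mean ± SD over the 23 mice. Ntsr2, a neurotensin receptor known from astrocytes, was highest at 61.2 ± 5.78 FPKM. Oprl1, the nociceptin receptor, followed at 38.5 ± 1.93 FPKM. Ednrb, the endothelin B receptor of glia and endothelium, had 21.7 ± 2.84 FPKM and Npr2 had 20.4 ± 0.977 FPKM, and these ranges overlapped. No other member exceeded 10 FPKM, and 8 members were under 1 FPKM. The median member had 1.99 FPKM against 3.62 FPKM over the 18992 genes that passed the expression filter, and 12 of the 40 lay above that median. Only 3 of 39 neighbouring pairs in this order were separated by more than their SDs: Ntsr2 from Oprl1, Oprl1 from Ednrb, and Npr2 from Sstr1.

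**Figure D1:**
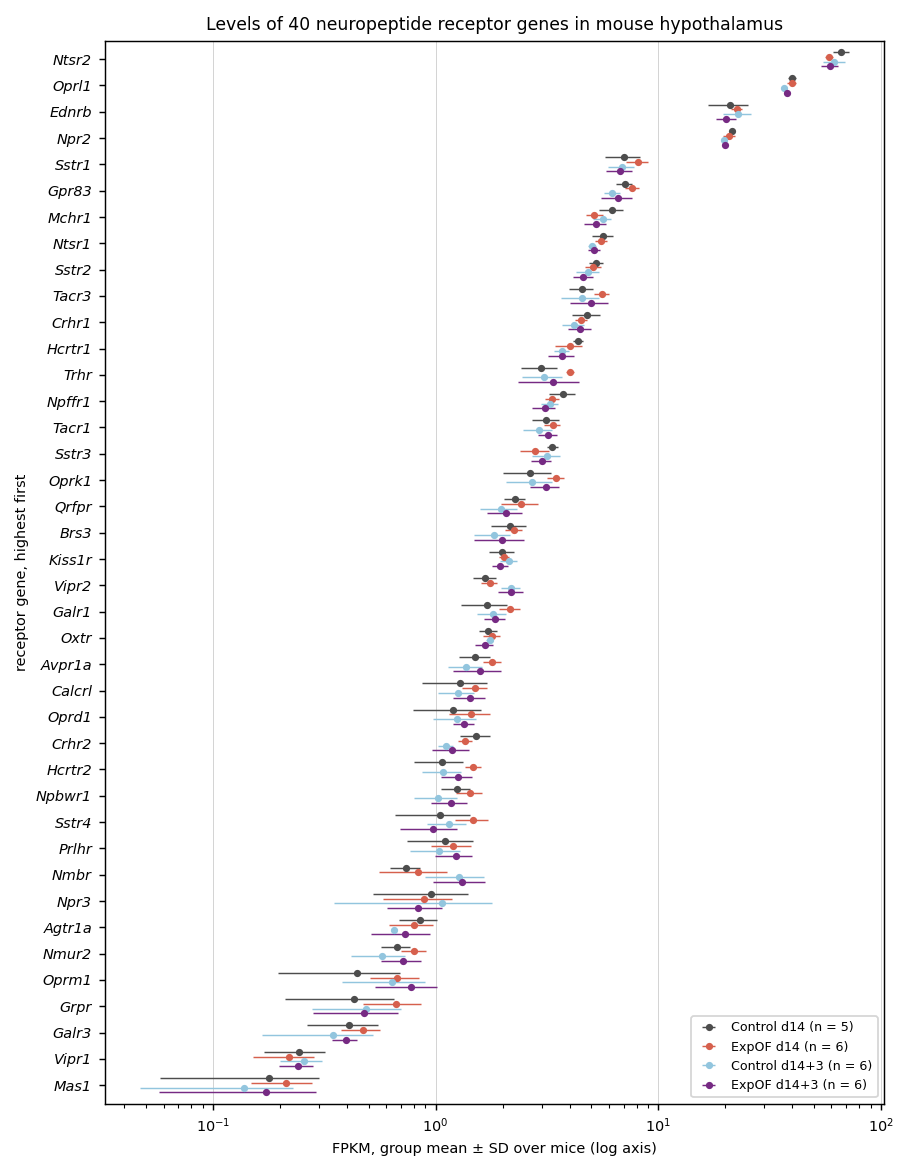
Level of each of the 40 receptor genes as FPKM on a log axis, with a point for the mean of each group and a bar for its SD over mice (5 Control d14 mice and 6 mice in each of the other groups). Ntsr2 at the top has 61.2 FPKM and Mas1 at the bottom has 0.176 FPKM over all 23 mice. The 4 group points of a gene lie close together compared with this whole range, though not compared with the distance between many neighbouring genes.

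Among receptors of the lateral hypothalamic peptides, Mchr1, which binds melanin-concentrating hormone, had 5.52 ± 0.675 FPKM. Of the orexin receptors, Hcrtr1 had 3.91 ± 0.482 FPKM and Hcrtr2 had 1.23 ± 0.254 FPKM. The corticotropin-releasing hormone receptor Crhr1 had 4.47 ± 0.515 FPKM, and Crhr2, which binds urocortins and is a known marker of the ventromedial nucleus, had 1.29 ± 0.225 FPKM. The receptor of thyrotropin-releasing hormone, Trhr, had 3.38 ± 0.756 FPKM. Oxtr, the oxytocin receptor, had 1.73 ± 0.136 FPKM and varied little between mice. The vasopressin receptor Avpr1a had 1.57 ± 0.30 FPKM, the angiotensin II receptor Agtr1a had 0.752 ± 0.170 FPKM, and Mas1, linked to angiotensin-(1-7), had 0.176 ± 0.0968 FPKM from 0 to 22 counts per library.

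The somatostatin receptors were ordered Sstr1 (7.19 ± 1.07 FPKM), Sstr2 (4.94 ± 0.512), Sstr3 (3.07 ± 0.392) and Sstr4 (1.16 ± 0.331). The galanin receptor Galr1 had 1.89 ± 0.313 FPKM, against 0.404 ± 0.125 FPKM for Galr3. In the opioid family the classical receptors were far below Oprl1, with Oprk1 (kappa) at 3.00 ± 0.590 FPKM, Oprd1 (delta) at 1.31 ± 0.285 FPKM and Oprm1 (mu) at 0.639 ± 0.244 FPKM. The tachykinin receptors Tacr3, for neurokinin B, and Tacr1, for substance P, had 4.93 ± 0.824 and 3.15 ± 0.384 FPKM. The second neurotensin receptor, Ntsr1, had 5.33 ± 0.430 FPKM. Vipr2, through which vasoactive intestinal peptide acts on the clock neurons of the suprachiasmatic nucleus, had 1.957 ± 0.314 FPKM, while Vipr1 had 0.239 ± 0.0576 FPKM. Calcrl, the shared receptor of CGRP and adrenomedullin, had 1.37 ± 0.274 FPKM and Npr3 had 0.936 ± 0.440 FPKM.

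The remaining 10 members were grouped as a family named for RF-amides, bombesin-like peptides, neuromedins and other peptides. They lay between 0.519 FPKM for Grpr, which binds gastrin-releasing peptide, and 6.87 ± 0.863 FPKM for Gpr83, whose ligand is only proposed. Between these were Npffr1 at 3.34, Qrfpr at 2.18, Brs3 at 2.05, Kiss1r at 2.03, Npbwr1 at 1.22, Prlhr at 1.14, Nmbr at 1.05 and Nmur2 at 0.691 FPKM. Grouped by coupling, a feature that played no part in choosing the members, the median level was 2.03 FPKM for the 15 Gq receptors, 2.44 FPKM for the 12 Gi receptors and 1.37 FPKM for the 5 Gs receptors. It was 6.20 FPKM for the 6 receptors of mixed coupling, and the other 2 members are the natriuretic peptide receptors. The coefficient of variation of CPM over the 23 mice had a median of 17.8% for the members against 14.9% for all genes tested, from 4.78% for Npr2 to 55.0% for Mas1. Counts of some members may hold reads of another gene, because whether reads were counted by strand is not given in the sources used here. A gene that passed the filter lies on the opposite strand of 7 members, and its level was above the member's own for Kiss1r (R3hdm4, 77.4 against 7.82 CPM), Sstr2 (Slc39a11, 23.4 against 10.6 CPM), Oprm1 (Ipcef1, 17.8 against 5.14 CPM) and Mas1 (Airn, 2.17 against 0.461 CPM).

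The first comparison asked whether receptor messages differed at the end of overfeeding. At d14 no receptor gene passed an adjusted p of 0.05 in edgeR's quasi-likelihood test, so 0 of 40 were called, and the background was 0.00527% (1 of 18992 genes). DESeq2 also called 0 of 40, without a share over all genes given here. With DESeq2 the paper reported genes that differed between overfed and control mice on both days, so edgeR's share does not stand for DESeq2. Background shares are edgeR's unless DESeq2 is named. Without adjustment, 9 of 40 members (22.5%) had p under 0.05, 6 higher and 3 lower in ExpOF mice (all genes 13.1% and 13.6%). That share was near the background, where 26.7% of all genes had an unadjusted p under 0.05. The fold change was above 0 for 27 members and below 0 for 13, against 46.6% of all genes above 0. The median log2 fold change was 0.10 for the members and -0.02 for all genes. The members' median was 0.17 without Control d14 replicate 1, 0.059 without replicate 2 and 0.062 without replicate 6.

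**Figure D2:**
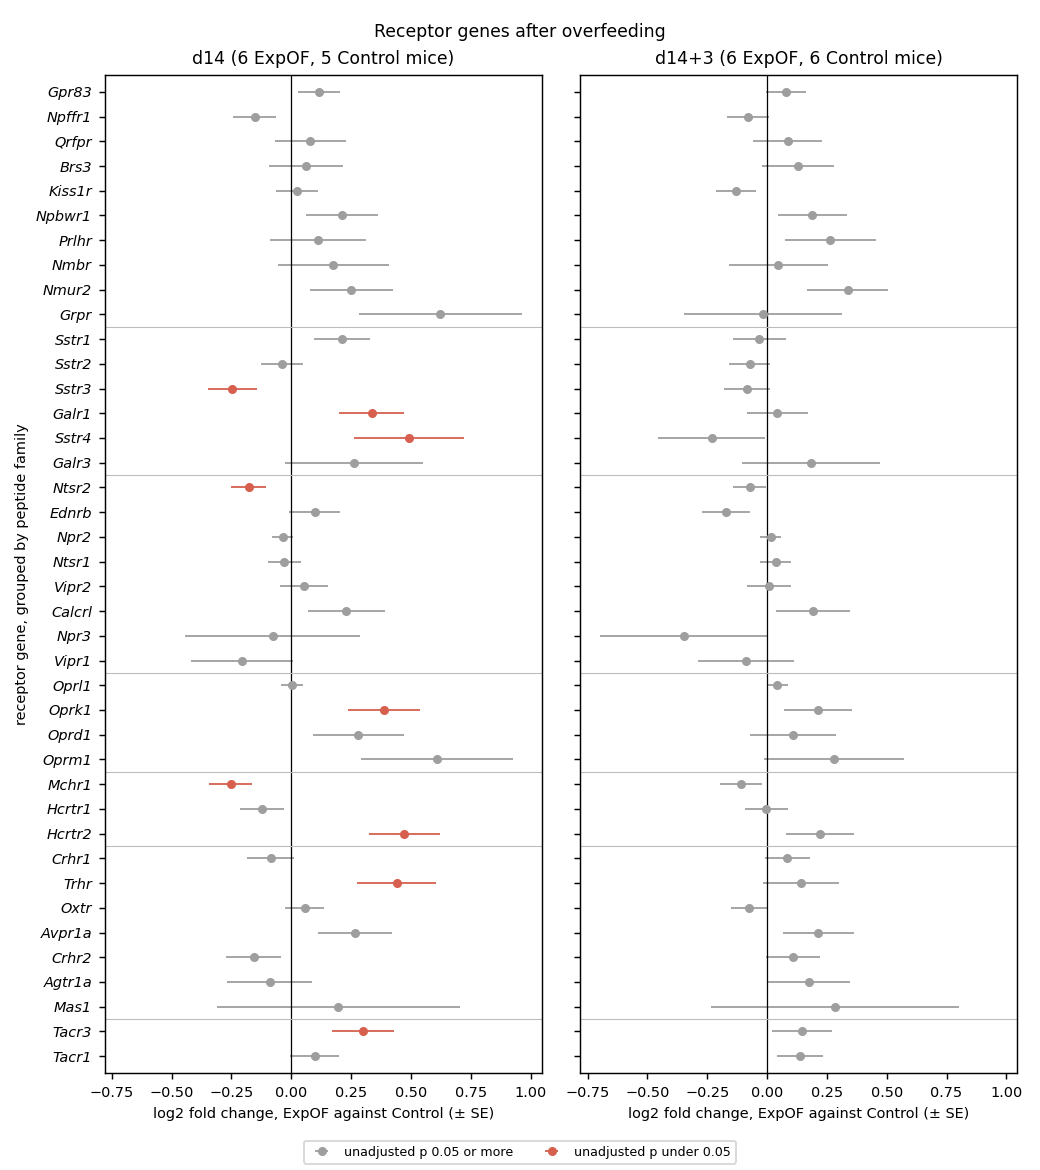
Log2 fold change of ExpOF against Control mice with its standard error for each receptor gene, on d14 (left) and d14+3 (right), with lines between peptide families and red points for an unadjusted p under 0.05. The 9 red points, 6 to the right and 3 to the left of 0, are all on d14, and no gene passed the adjusted threshold on either day.

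By family, all 4 opioid receptors had a fold change above 0 at d14, with a median of 0.33 (log2), and so did both tachykinin receptors. Of the 10 receptors in the family named for RF-amide, bombesin and neuromedin peptides, 9 were above 0, with a median of 0.11. The galanin and somatostatin receptors split, 4 above and 2 below 0. Among the receptors of orexin and melanin-concentrating hormone 1 was above and 2 were below 0, and the 8 members with neurotensin, VIP, CGRP, natriuretic and endothelin peptides had a median of -0.03. Of the Gq receptors 12 of 15 were above 0 and of the Gi receptors 9 of 12, against 2 of 5 for Gs, 4 of 6 for receptors of mixed coupling and 0 of 2 for the natriuretic peptide receptors. Of the 7 receptors for oxytocin, vasopressin, CRH, TRH and angiotensin, 4 were above 0. These are counts over members and were not tested.

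Hcrtr2 had the smallest p at d14. This orexin receptor supports wakefulness and is found in histamine neurons among others. Hcrtr2 measured 8.86, 6.02, 7.40, 4.50 and 6.00 CPM in the Control mice (replicates 1, 2, 3, 5 and 6), and 8.05, 9.23 and 9.92 CPM as the lowest, median and highest of the ExpOF mice. Replicate 1 was the one Control mouse inside the ExpOF range. The log2 fold change of Hcrtr2 was 0.47 (SE 0.15), with an unadjusted two-sided exact permutation p of 0.00866 and an edgeR adjusted p of 0.135. Within the cohorts it was 0.58 in July and 0.35 in September. The gene lies on chr9:76225880-76323611 of mm10 on the minus strand, and Mchr1, which differed the other way, on chr15:81235499-81238964 on the plus strand.

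Their promoters are shown because these members had the smallest p and opposite directions at d14. Each window runs from 250 bases before to 50 bases after a RefSeq start site (GRCm38.p6, gene strand, 5′ to 3′; chr9:76323574-76323873 for Hcrtr2 and chr15:81235249-81235548 for Mchr1). Capitals mark CGTCA in Hcrtr2, the reverse complement of the first letters of a cyclic AMP response element (TGACG), and CACGTG, an E-box, in Mchr1.
Hcrtr2: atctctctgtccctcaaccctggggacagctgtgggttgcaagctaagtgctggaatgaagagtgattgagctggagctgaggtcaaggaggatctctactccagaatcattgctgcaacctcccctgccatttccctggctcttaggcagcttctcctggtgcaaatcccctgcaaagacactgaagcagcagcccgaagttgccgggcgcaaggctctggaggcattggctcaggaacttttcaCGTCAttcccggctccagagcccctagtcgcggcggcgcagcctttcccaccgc
Mchr1: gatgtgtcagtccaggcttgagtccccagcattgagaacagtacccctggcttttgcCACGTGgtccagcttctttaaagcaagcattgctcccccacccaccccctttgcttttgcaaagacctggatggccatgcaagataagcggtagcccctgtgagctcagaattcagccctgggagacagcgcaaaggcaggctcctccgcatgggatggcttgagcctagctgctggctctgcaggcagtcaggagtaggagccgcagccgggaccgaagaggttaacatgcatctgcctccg
On either strand, TGACG was found in 20.8% and CACGTG in 7.15% of all 32851 promoter windows, and in 32.5% and 12.5% of the 40 windows of receptor genes, which cover 33 of the members.

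Trhr, whose ligand is known for the thyroid axis and also acts within the brain, was the one member whose groups did not overlap at d14. Of all genes tested, 2.50% had groups without overlap in this comparison, which equals 1 member in 40. Control mice measured 14.9, 10.8, 12.9, 8.97 and 11.7 CPM, and ExpOF mice 15.6 to 17.0 CPM with a median of 15.8. All 6 ExpOF mice were above all 5 Control mice, though replicate 1 came within 1 CPM of them. The log2 fold change was 0.44 (SE 0.17, edgeR adjusted p = 0.140). The unadjusted exact permutation p was 0.00216, the smallest that 6 against 5 mice allow. Any gene without overlap reaches it, so it adds nothing to the lack of overlap.

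Oprk1, the dynorphin receptor, measured 33.0, 20.2, 26.5, 18.3 and 23.0 CPM in Control mice against 28.9 to 36.3 CPM in ExpOF mice (median 31.1). Replicate 1 again lay inside the ExpOF range and the other 4 Control mice lay below it. The log2 fold change was 0.39 (SE 0.15, edgeR adjusted p = 0.141). Galr1 measured 6.43, 4.14, 5.96, 3.62 and 5.29 CPM in Control mice against 5.54 to 7.44 CPM in ExpOF mice (median 6.23), a log2 fold change of 0.34 (SE 0.13, edgeR adjusted p = 0.145). Here 2 Control mice lay inside the ExpOF range.

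Mchr1 and Ntsr2 differed the other way. Mchr1 measured 11.8, 15.9, 11.97, 13.9 and 14.0 CPM in Control mice and 10.3 to 12.8 CPM in ExpOF mice (median 11.0). Its log2 fold change was -0.25 (SE 0.09, edgeR adjusted p = 0.138), with -0.39 in July and -0.11 in September. Ntsr2 measured 185, 227, 205, 218 and 200 CPM in Control mice and 172 to 193 CPM in ExpOF mice (median 185), a log2 fold change of -0.18 (SE 0.07, edgeR adjusted p = 0.145). Replicate 1 was the lowest Control mouse for both genes and lay inside the ExpOF range. For Mchr1 the Control mouse at 11.97 CPM also lay inside that range. With the trend of each library on gene length removed, the log2 fold change was -0.15 for Mchr1 and -0.13 for Ntsr2. Over 11 alternatives, this one included, the d14 value was 0.35 to 0.68 for Hcrtr2 and 0.40 to 0.51 for Trhr. It was 0.23 to 0.57 for Oprk1 and 0.33 to 0.39 for Galr1. Across all genes the d14 fold change and gene length had a Spearman correlation of 0.41, while across the 40 members it was -0.01. Genes are not independent replicates, so no p is given.

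**Figure D3:**
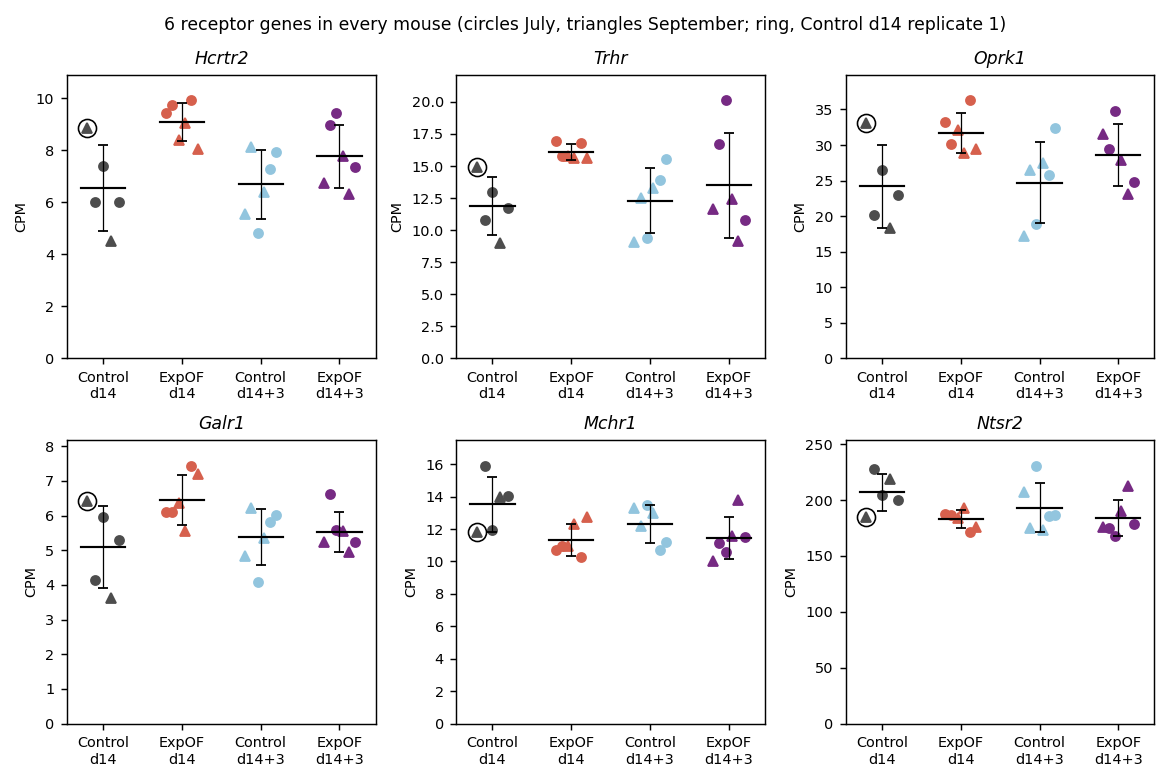
CPM of the 6 receptor genes with the smallest p at d14 in every mouse, with circles for July and triangles for September, a line for the group mean and a bar for its SD. In Control d14 the ringed mouse, replicate 1, has the highest Hcrtr2, Trhr, Oprk1 and Galr1 values of its group and the lowest Mchr1 and Ntsr2 values.

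The d14 count depended on 1 Control mouse. Control d14 replicate 1 was the highest of the 5 Control mice for 21 of 40 members and the lowest for 8, which is 72.5% of members at an extreme against 62.1% of all genes tested. Without replicate 1, 9 of 40 receptor genes (22.5%) passed the adjusted threshold, but so did 22.0% of all genes (4220 of 19206). Those called higher in ExpOF were Hcrtr2, Trhr, Oprk1, Galr1, Oprm1, Grpr and Calcrl, and those called lower were Mchr1 and Ntsr2. The share of called members was thus near the background with or without this mouse. Without it the log2 fold change was 0.61 for Hcrtr2 (edgeR adjusted p = 0.0200) and -0.29 for Mchr1 (edgeR adjusted p = 0.0355). For Trhr, Oprk1, Galr1 and Ntsr2 it was 0.54, 0.53, 0.43 and -0.21. The fold change was then above 0 for 28 members and below 0 for 12. Over the single libraries left out, the lowest log2 fold changes were 0.36 for Hcrtr2, 0.35 for Trhr, 0.30 for Oprk1 and 0.23 for Galr1. The highest were -0.20 for Mchr1 and -0.15 for Ntsr2. Control d14 replicate 5 was the lowest of the 5 Control mice for 14 of 40 members, against 22.2% of all genes. Fold changes of single genes without replicate 5 are not given here.

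Markers of neighbouring tissue were compared in the same d14 groups, and none of those named here passed the adjusted threshold. All 7 listed markers of septum and basal forebrain had a fold change above 0 in ExpOF mice, 4 of them with an unadjusted p under 0.05, and their summed level was 110 to 136 CPM in Control and 109 to 200 CPM in ExpOF mice. All 8 markers of the meninges were below 0, and their sum was 338 to 664 CPM in Control and 263 to 397 CPM in ExpOF mice. The 8 choroid plexus markers summed to 3090 CPM in Control d14 replicate 5, to 39.6 to 45.3 CPM in the other Control mice and to 37.9 to 44.4 CPM in ExpOF mice. RNA integrity numbers were 8.0 to 10.0 in Control and 9.6 to 10.0 in ExpOF mice. The part of these differences in the receptor values was not tested. A fit with RNA integrity as a covariate called 0 of 40 members, without a share over all genes given here. The fit without it also called 0 of 40, so this count cannot show what part RNA integrity had.

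At d14+3, the comparison asked what remained after 3 days with water infused in place of the liquid diet. RNA integrity numbers were 7.2 to 9.9 in Control and 8.8 to 10.0 in ExpOF mice, and their part in the receptor values was not tested. No receptor gene passed in edgeR's test (0 of 40, background 0%), and no member had an unadjusted p under 0.05, against 7.11% of all genes (2.91% higher and 4.20% lower). DESeq2 called 0 of 40 here too, again without a share over all genes. Fold changes were above 0 for 26 members and below 0 for 14, against 52.1% of all genes above 0, with a median log2 value of 0.06 against 0.01 for all genes. The members' median was 0.025 without ExpOF d14+3 replicate 3 and 0.036 without Control d14+3 replicate 1, and by cohort it was 0.14 in July and 0.0064 in September. No member had groups without overlap, against 0.421% of all genes.

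Nmur2, the hypothalamic receptor of the anorexigenic peptides neuromedin U and S, had the smallest p at d14+3. It measured 1.29, 1.93 and 2.54 CPM (lowest, median and highest) in Control and 1.93, 2.23 and 3.25 CPM in ExpOF mice, so the groups overlapped widely. Its log2 fold change was 0.34 (SE 0.17, edgeR adjusted p = 0.712), and at d14 it was 0.25 (SE 0.17). Ednrb measured 78.4, 98.8 and 116 CPM in Control and 74.6, 86.4 and 96.2 CPM in ExpOF mice (log2 fold change -0.17, SE 0.10), against 0.10 (SE 0.11) at d14. Kiss1r, the kisspeptin receptor that drives gonadotropin-releasing hormone neurons, measured 7.47, 8.07 and 9.39 CPM in Control and 6.77, 7.43 and 8.56 CPM in ExpOF mice, a log2 fold change of -0.13 (SE 0.08).

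Hcrtr2 and Oprk1, which were among the 6 at d14, and Avpr1a were also among the 6 with the smallest p at d14+3. Hcrtr2 measured 4.81, 6.84 and 8.12 CPM in Control and 6.33, 7.57 and 9.42 CPM in ExpOF mice, a log2 fold change of 0.22 (SE 0.14, edgeR adjusted p = 0.768), with 0.38 in July, 0.05 in September and 0.14 without Control d14+3 replicate 3. Oprk1 measured 17.2, 26.1 and 32.4 CPM in Control and 23.1, 28.7 and 34.8 CPM in ExpOF mice, a log2 fold change of 0.21 (SE 0.14), which was 0.13 without Control d14+3 replicate 1. Avpr1a measured 2.97, 3.50 and 4.64 CPM in Control and 2.42, 4.46 and 5.28 CPM in ExpOF mice, a log2 fold change of 0.21 (SE 0.15), with 0.27 (SE 0.15) at d14. Of the other receptors that led at d14, Trhr spread from 9.19 to 20.1 CPM in the ExpOF mice, after 15.6 to 17.0 CPM at d14, and its log2 fold change was 0.14 (SE 0.16). For Galr1, Mchr1 and Ntsr2 it was 0.04 (SE 0.13), -0.11 (SE 0.09) and -0.07 (SE 0.07).

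Whether the overfeeding difference itself changed between the days was tested with the overfeeding-by-day interaction. It called 0 of 40 members in edgeR and in DESeq2 (background in edgeR 0%). Without adjustment, 1 member had p under 0.05, against 4.42% of all genes (2.78% higher and 1.64% lower). The value was above 0 for 18 members, against 52.6% of all genes. The member was Sstr4, a somatostatin receptor, with a log2 interaction of -0.72 (SE 0.32, edgeR adjusted p = 0.903). Sstr4 measured 2.10, 0.782, 1.98, 1.18 and 1.38 CPM in Control and 1.64 to 2.57 CPM in ExpOF mice at d14, and 1.1004 to 2.03 CPM in Control and 0.605 to 1.71 CPM in ExpOF mice at d14+3. It rests on 11 to 78 counts per library. Ednrb followed, with a log2 interaction of -0.27 (SE 0.15).

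The 2 days were compared within each diet. RNA integrity numbers were 8.0 to 10.0 at d14 and 7.2 to 9.9 at d14+3 in Control mice. In ExpOF mice they were 9.6 to 10.0 and then 8.8 to 10.0. The groups Control d14+3 and Control d14 share no mice with ExpOF d14+3 and ExpOF d14, but each is also part of a diet comparison above. In Control mice 0 of 40 members passed in edgeR against a background of 1.15% (218 of 18992), and 10 members had an unadjusted p under 0.05, 2 higher and 8 lower at d14+3, which is 25.0% against 12.7% of all genes (6.81% higher and 5.93% lower). DESeq2 called 3 of 40, namely Vipr2, Nmbr and Crhr2, against a background of 2.80%. In ExpOF mice 0 of 40 passed in edgeR or DESeq2 (background in edgeR 0%), and 6 had an unadjusted p under 0.05, 2 higher and 4 lower, against 7.79% of all genes (5.39% higher and 2.40% lower). The fold change was below 0 for 24 members in Control and 32 in ExpOF mice, where 48.0% and 51.3% of all genes were above 0.

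Vipr2 was higher at d14+3 in both diets. Control mice measured 6.67, 7.13, 6.82, 8.84 and 7.81 CPM at d14 and 8.28, 9.78 and 11.0 CPM at d14+3, and ExpOF mice 6.94, 7.74 and 8.79 CPM and then 7.77, 10.1 and 11.1 CPM. In each diet 5 of the 6 later mice lay above every earlier mouse. The log2 fold change was 0.38 (SE 0.10, edgeR adjusted p = 0.0542, DESeq2 adjusted p = 0.0108) in Control and 0.33 (SE 0.09, edgeR adjusted p = 0.148) in ExpOF mice. By cohort, it was 0.42 in July and 0.34 in September in Control mice, and 0.18 and 0.48 in ExpOF mice.

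Nmbr, the neuromedin B receptor, showed the largest day difference among the members. Control mice measured 2.42, 1.79, 2.32, 2.67 and 2.7001 CPM at d14 and 2.73, 4.14 and 5.52 CPM at d14+3, and ExpOF mice 1.84, 2.48 and 4.45 CPM and then 2.52, 4.23 and 6.07 CPM. The Control groups did not overlap, by a margin of less than 0.1 CPM, while the ExpOF groups did. The log2 fold change was 0.78 (SE 0.23, edgeR adjusted p = 0.0924) in Control and 0.65 (SE 0.22, edgeR adjusted p = 0.290) in ExpOF mice. Including Nmbr, 4 members had Control groups without overlap, against 1.58% of all genes. The other 3, chosen after their values were seen apart from Npr2, were Hcrtr1, Npr2 and Agtr1a, all lower at d14+3 with log2 fold changes of -0.25, -0.11 and -0.38.

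Crhr2 was lower in Control mice at d14+3. It measured 7.83, 8.51, 7.51, 9.14 and 5.92 CPM at d14 and 5.24, 5.59 and 6.42 CPM at d14+3, a log2 fold change of -0.45 (SE 0.12, edgeR adjusted p = 0.0526, DESeq2 adjusted p = 0.0166). In ExpOF mice it measured 6.42, 7.03 and 7.43 CPM and then 5.14, 5.82 and 8.30 CPM, a log2 fold change of -0.19 (SE 0.11, edgeR adjusted p = 0.765). The interaction for Crhr2, which tests whether these differ, was 0.26 (SE 0.16, edgeR adjusted p = 0.903). Other settings moved this count. Without Control d14+3 replicate 5 both Vipr2 and Crhr2 were called (background 1.65%). Vipr2 alone was called without ExpOF d14+3 replicate 3 (1.37%), ExpOF d14+3 replicate 5 (1.25%) or Control d14 replicate 5 (1.39%), and with DESeq2 size factors (1.22%). Crhr2 alone was called without ExpOF d14+3 replicate 4 (0.939%), ExpOF d14+3 replicate 6 (1.46%) or Control d14 replicate 6 (1.06%), and with all 24 libraries (0.853%). With RNA integrity as a covariate both were called (1.32%). In ExpOF mice, Vipr2 and Gpr83 were called between days without ExpOF d14+3 replicate 3 (0.828%).

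The promoters of Vipr2 (chr12:116077476-116077775, plus strand) and Crhr2 (chr6:55132967-55133266, minus strand) are shown as the members with the smallest p between days in Control mice, one in each direction. Windows and source are as above, and capitals mark a GC box (GGGCGG) in Vipr2 and a TATA box (TATAAA) in Crhr2.
Vipr2: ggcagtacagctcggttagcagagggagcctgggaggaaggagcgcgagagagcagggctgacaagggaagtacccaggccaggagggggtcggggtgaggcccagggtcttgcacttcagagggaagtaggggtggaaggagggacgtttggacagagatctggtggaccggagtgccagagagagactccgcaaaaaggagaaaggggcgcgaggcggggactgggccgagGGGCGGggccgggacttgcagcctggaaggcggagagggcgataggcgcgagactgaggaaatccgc
Crhr2: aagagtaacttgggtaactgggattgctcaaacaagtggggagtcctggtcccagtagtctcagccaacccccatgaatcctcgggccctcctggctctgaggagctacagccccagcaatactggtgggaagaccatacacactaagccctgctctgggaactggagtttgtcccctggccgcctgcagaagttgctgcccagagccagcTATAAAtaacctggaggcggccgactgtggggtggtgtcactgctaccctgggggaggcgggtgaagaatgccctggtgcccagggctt
On either strand the GC box was found in 35.7% of all promoter windows and 27.5% of the receptor windows, and the TATA box in 13.6% and 15%. The Vipr2 window held 18 CpG sites and the Crhr2 window 5, against a median of 7 over all windows.

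Thalamic markers differed between the days in the same libraries. The summed level of 8 thalamus markers, among them Prkcd and Tcf7l2, was 165 to 523 CPM in Control d14 and 413 to 892 CPM in Control d14+3, and 174 to 370 CPM and then 380 to 815 CPM in ExpOF mice. All 8 had an unadjusted p under 0.05 in both diets, with median log2 fold changes of 0.99 and 1.101, and 1 of 8 passed the adjusted threshold in Control mice and 0 in ExpOF mice. Of 17 hypothalamus markers tested, 15 were below 0 in Control and 16 in ExpOF mice, with median log2 fold changes of -0.37 and -0.29. The hypothalamic markers were present in every group, with a summed level of 560 to 1365 CPM. The part of the tissue taken in the receptor differences was not tested.

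**Figure D4:**
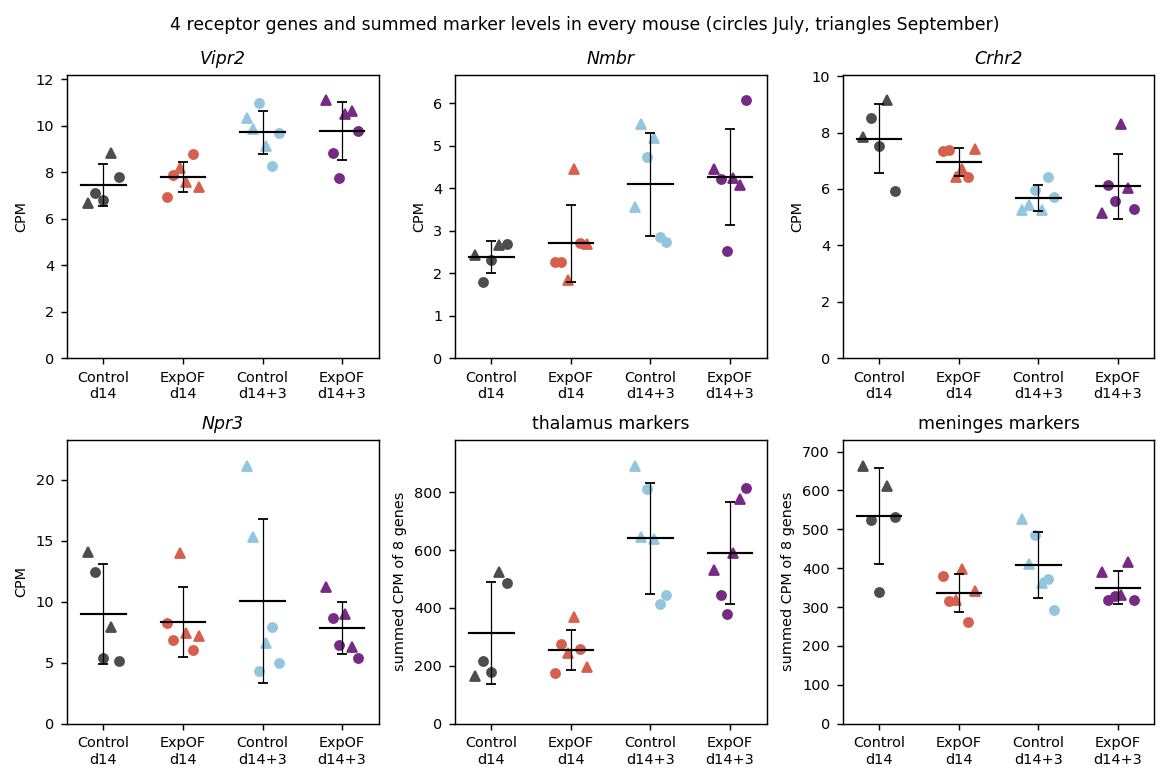
CPM of Vipr2, Nmbr, Crhr2 and Npr3 and the summed CPM of 8 thalamus and 8 meninges markers in every mouse, with circles for July and triangles for September, lines for group means and bars for SD. Vipr2 and Nmbr lie higher in the d14+3 groups, where the thalamus markers reach 815 CPM in ExpOF and 892 CPM in Control mice, and the highest Npr3 value, 21.2 CPM, is from a September mouse.

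Receptor genes were also compared between cohorts, in a fit with group and extraction round, and along RNA integrity, in a fit with group. September against July called 0 of 40 members in edgeR and DESeq2 (background in edgeR 0%). Without adjustment, 2 members had p under 0.05, 1 higher and 1 lower, against 4.28% of all genes (2.52% higher and 1.75% lower). Fold changes were above 0 for 20 members, against 46.9% of all genes. Without a filter on low counts Npr3 passed (background 0.590%). Npr3 had the smallest p, with 4.29, 6.29 and 12.4 CPM in 12 July mice and 6.33, 9.00 and 21.2 CPM in 11 September mice, a log2 difference of 0.71 (SE 0.16, edgeR adjusted p = 1.00). Of the 8 meninges markers, 7 were above 0 in September, 4 with an unadjusted p under 0.05, and their summed level was 263 to 532 CPM in July and 317 to 664 CPM in September. All 8 choroid plexus markers were above 0 in September, 5 with an unadjusted p under 0.05. Their summed level was 39.0 to 54.0 CPM in July and 37.9 to 3090 CPM in September, where Control d14 replicate 5 had 3090 CPM and ExpOF d14+3 replicate 4 had 1320 CPM. The part of these tissues in the Npr3 difference was not tested. Qrfpr measured 3.81, 5.03 and 6.32 CPM in July and 2.94, 4.37 and 5.71 CPM in September, a log2 difference of -0.23 (SE 0.10). For the slope on RNA integrity number, 0 of 40 passed in edgeR and DESeq2 (background in edgeR 0%) and 5 had an unadjusted p under 0.05, 2 higher and 3 lower, against 6.42% of all genes (4.08% higher and 2.34% lower). The slope was above 0 for 14 members, against 49.3% of all genes. Tacr1 had a slope of -0.16 (SE 0.04) and Sstr2 of 0.12 (SE 0.04) on the log2 scale per unit, with edgeR adjusted p-values of 0.481 and 0.711. Tacr1 lay between 14.4 and 25.2 CPM over all mice, and Sstr2 between 8.80 and 12.3 CPM.

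Npr2 and Oprl1 had the smallest coefficients of variation of the 40 members. Oprl1 measured 144, 158, 153, 145 and 146 CPM in Control and 142 to 159 CPM in ExpOF mice at d14, a log2 fold change of 0.00 (SE 0.04), and 133 to 144 CPM and 136 to 148 CPM at d14+3, a log2 fold change of 0.04 (SE 0.04). Npr2 measured 101, 102, 101, 97.2 and 97.7 CPM in Control and 89.6 to 104 CPM in ExpOF mice at d14, a log2 fold change of -0.04 (SE 0.04), and 88.6 to 96.4 CPM and 91.4 to 95.1 CPM at d14+3. Ednrb at d14 measured 107, 76.2, 111, 72.8 and 81.3 CPM in Control and 89.6 to 104 CPM in ExpOF mice.

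Other genes of the same pathways were read from lists. Of 42 ligand genes 35 passed the filter. None was called at d14, where 16 had an unadjusted p under 0.05 and were lower in ExpOF mice and 0 were higher. Of all genes, 13.6% were lower and 13.1% higher at that threshold. The median log2 fold change of the ligand genes was -0.23. With the length trend removed, 10 ligand genes were lower and 1 higher at an unadjusted p under 0.05, and their median was -0.08. The share over all genes in that fit is not given here. The smallest p-values belonged to Nmb (-0.54, SE 0.16), which encodes the ligand of Nmbr, to Agt (-0.30, SE 0.09), which encodes angiotensinogen, and to Ucn3 (-0.42, SE 0.13), which encodes a ligand of Crhr2. At d14+3 the vasopressin gene Avp (-0.99, SE 0.29), the oxytocin gene Oxt (-0.73, SE 0.28) and Tac2 (-0.28, SE 0.12), which encodes neurokinin B, had the smallest p-values, with edgeR adjusted p-values of 0.413, 0.585 and 0.613. Between days in Control mice 1 of 35 ligand genes was called, Pdyn, the prodynorphin gene, with a log2 fold change of -0.41 (SE 0.09, edgeR adjusted p = 0.0171).

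Downstream of the receptors, 0 of 18 G protein subunit genes, 0 of 28 regulators and effectors, 0 of 16 peptide processing genes and 0 of 12 related receptors outside the list were called on either day of the diet comparison. Rgs10, a regulator of G protein signalling, had the smallest p of the regulators at d14 (log2 fold change -0.29, SE 0.08, edgeR adjusted p = 0.135). Adcy3, an adenylyl cyclase, had log2 fold changes of 0.18 (SE 0.06) at d14 and 0.19 (SE 0.05) at d14+3, with edgeR adjusted p-values of 0.135 and 0.344. Gnas, which encodes the Gs alpha subunit, had -0.28 (SE 0.08) at d14+3 with an edgeR adjusted p of 0.333. In Control mice between days, 5 of 28 regulators and effectors rose at d14+3, where 1.15% of all genes were called in either direction: Adcy1 by 0.96 (SE 0.18), Grk5 by 0.43 (SE 0.10), Plcb4 by 0.38 (SE 0.08), Rgs8 by 0.33 (SE 0.08) and Kcnj3 by 0.30 (SE 0.07) on the log2 scale. Gnal, the olfactory type Gs subunit, rose by 0.29 (SE 0.07), Prep by 0.31 (SE 0.07), and Scg2 fell by 0.23 (SE 0.05) in the same comparison. The summed thalamus markers were 165 to 523 CPM and then 413 to 892 CPM in these libraries, and their part in these differences was not tested. In ExpOF mice 0 of these lists' genes were called between days, with Plcb4 at 0.38 (SE 0.08) and Adcy1 at 0.76 (SE 0.17).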

How the data were processed

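Poly-A RNA of 24 mouse hypothalami was sequenced in stranded libraries. The authors aligned reads with STAR to mm10, summarised them per gene with featureCounts 1.6.4 and GENCODE annotation, and deposited the counts without normalization. Whether reads were counted by strand is not given in the sources used here. Symbols came from GENCODE vM21 for 55144 of the 55471 genes, and promoters from RefSeq on GRCm38.p6. The mouse the study removed is not named in its labels, and it was taken as Control d14 replicate 4 because the published mean expression values could be recomputed, among the Control d14 libraries, only without that one. The receptor genes, lists and tests were chosen with earlier results of these data known.

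Tests used edgeR 4.0.16 in R 4.3.3 with TMM scaling and a robust quasi-likelihood fit of the 4 groups over 23 libraries. Genes were filtered by group with filterByExpr, its minimum count set to 10 and its minimum total count to 15. A gene could pass with fewer than 10 counts in some libraries. Adjustment was by Benjamini-Hochberg over 18992 genes, with a threshold of 0.05, and all 40 receptor genes passed the filter. Cohort was tested beside the groups and the round of RNA extraction, and RNA integrity beside the groups. CPM used TMM factors, and FPKM used the deposited gene lengths. Single genes were also compared with two-sided exact permutation tests, without adjustment for the number of genes. Low counts, in libraries from 8928182 counts upward, gave wide errors.

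Values per mouse are given for the 6 members with the smallest p in each diet comparison, the 2 with the smallest p in each other comparison, the 4 with the highest FPKM, and any member past the threshold or without overlap between diets on a day. From other lists, genes past the threshold or the 3 smallest p in a diet comparison are named. Alternatives were DESeq2 1.42.0, its size factors, no filter, all 24 libraries, each library left out, a spline on gene length with 5 degrees of freedom, covariates, a replicate block, each cohort alone and only the groups compared. Scripts were tested on simulated data.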

Additional observations from a re-analysis of the deposited data

Results flagged for a closer look

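Among 20 receptor genes described in full, 80 sets of 5 or 6 mice were checked for a mouse far from the others of its group, with Dixon's ratio of the gap to the range. Chance flags about 1 in 20 such sets, and 5 were found. Tacr1 measured 25.2 CPM in Control d14 replicate 1, with the next mouse at 20.0 CPM. Sstr4 measured 0.605 CPM in ExpOF d14+3 replicate 5, below the next at 1.39 CPM. Crhr2 measured 8.30 CPM in ExpOF d14+3 replicate 4, above the next at 6.15 CPM. Nmbr measured 4.45 CPM in ExpOF d14 replicate 4, above the next at 2.705 CPM. Npr3 measured 14.0 CPM in ExpOF d14 replicate 3, above the next at 8.28 CPM. No member had an overfeeding-by-day interaction past the threshold.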

How the results depend on the processing

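The count of receptor genes past the threshold was 0 in all 7 comparisons of the reported fit. At d14 it stayed 0 under every alternative except that leaving out 1 library gave 0 to 9, the 9 being without Control d14 replicate 1. At d14+3, in the interaction and along RNA integrity it was 0 under every alternative that was run. Between days in Control mice it was 3 with DESeq2 (Crhr2, Nmbr and Vipr2), 1 with DESeq2 size factors (Vipr2), 1 with all 24 libraries (Crhr2), 2 with RNA integrity as a covariate (Crhr2 and Vipr2) and 0 to 2 when leaving out 1 library. Between days in ExpOF mice it was 0 to 2 when leaving out 1 library, the 2 being Gpr83 and Vipr2 without ExpOF d14+3 replicate 3. Between cohorts it was 1 with no filter on low counts, Npr3 with an edgeR adjusted p of 5.47e-13 (with DESeq2 0.171, otherwise up to 1.00), and the cause was not tested. The 12 diet fold changes recomputed under the alternatives, of the 6 members with the smallest p on each day, kept their direction. Other fold changes named for a diet comparison were not all followed. Replicate numbers did not pair the mice: over 33 pairs of equal number the correlation of deviations was -0.255 to 0.364 and 6 pairs exceeded 0.1, and 1 of 23 libraries correlated best with its own number. With a replicate block 0 receptor genes were called in each of the group comparisons, without a share over all genes given here. The median log2 fold change of the members at d14 was 0.059 to 0.17 when leaving out 1 library, and at d14+3 0.025 to 0.088. Depth limits Mas1, Galr3, Grpr and Vipr1 most, with medians of 9, 13, 30 and 31 counts per library.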

Other observations

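Control d14 replicate 4 entered no comparison, and its receptor values are given with the other libraries scaled together with it. It was below every other library for 21 of 40 receptor genes (52.5%, against 39.9% of all genes tested) and above every other library for 9 (22.5%, against 32.8%). Sstr4, Grpr and Galr3 had 0 counts in this library. Hcrtr2 had 7 counts (0.717 CPM) against 4.50 to 9.96 CPM in the others, and Sstr1 had 12 counts (1.23 CPM) against 10.3 to 18.6 CPM. Oprm1, Oprd1 and Calcrl measured 0.512, 0.614 and 0.819 CPM. In contrast, Crhr2 measured 13.6 CPM against 5.08 to 9.14 CPM in the others, and Ntsr2 measured 329 CPM against 166 to 231 CPM. Mchr1, Trhr and Vipr2 lay inside the range of the others, at 13.4, 13.8 and 7.68 CPM. Receptors of one peptide family thus differed in this library: Hcrtr1 measured 11.98 CPM, inside the range of 8.03 to 12.6 CPM, while Hcrtr2 was far below its range. Some marker lists also stood apart in this library, while others did not. The summed choroid plexus markers were at 4511 CPM and the meninges markers at 1463 CPM in this library, against at most 3090 and 664 CPM in the other libraries, scaled without it. The ligand genes summed to 6377 CPM against at most 3042 CPM, and the neuron markers to 1800 CPM against at least 2570 CPM. The hypothalamus markers summed to 2626 CPM against at most 1365 CPM, and those of septum and basal forebrain to 88.1 CPM against at least 109 CPM. The thalamus and striatum markers, at 583 and 181 CPM, lay inside the ranges of the other libraries. Their part in the receptor values was not tested.

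Some mice were at one end of their group for many receptor genes. ExpOF d14+3 replicate 3 was the highest of its group for 18 of 40 members, against 20.7% of all genes, and replicate 5 of that group was the lowest for 18, against 28.1%. In Control d14+3, replicate 3 was the lowest for 15 members, against 24.7% of all genes, and replicate 6 the highest for 13, against 20.9%.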
